A study of Saccharomyces cerevisiae with 30 samples.

Results

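The comparison concerns 4 arrays on which RNA of the budding yeast strains YKH104 and YKH106 was hybridised beside RNA of the same reference strain, YKH105. They are 4 of the 30 arrays in the series, 2 for each strain, and were taken by the strain names in the labels. In each strain, replicate 1 carried the test strain in channel 1 and replicate 2 carried it in channel 2, so each YKH104 array was set against the YKH106 array of the same dye orientation. The series asks, by its title, about genome-wide regulation by TFIID and SAGA. Cultures of all strains used here, YKH105 included, had CSM-Trp-His as their medium. They reached an OD600 near 0.8 at 26 °C, and 45 min at 37 °C followed before RNA was taken. YKH105 was also hybridised against itself on 3 arrays, and the strains YKH107, YKH108 and YKH109 had arrays against it too. The labels give strain names and no genotypes, so no allele was assumed for any strain.

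In yeast, TBP (the TATA-binding protein) reaches promoters through TFIID or through SAGA. TFIID consists of TBP and TBP-associated factors, some of which SAGA also holds, while SAGA carries the histone acetyltransferase Gcn5 and the subunits Spt3 and Spt8, which contact TBP. Genes that respond to stress or nutrients are known to lean more on SAGA in yeast, and housekeeping genes such as those of ribosomal proteins more on TFIID. SPT3 is therefore a transcript to look at first when strains of such a study are compared.

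Each value is a log2 ratio of test strain over reference, centred on the median of its array, so that 0 is the typical gene of that array. The direction of the ratio is not stated in the labels. Test over reference was assumed from SPT3, which lay near -8 in YKH104. That presumes a loss of SPT3 transcript in YKH104 rather than a gain, so the direction at SPT3 is an assumption and not a result. The arrays of YKH105 against itself lie near 0 in either reading and do not bear on it. RNA came from whole cultures, so fewer cells of a kind and less transcript per cell cannot be told apart. If the ratio ran the other way, every higher and lower below would swap. The arrays in opposite orientation correlated positively across genes, so the deposited ratios were read as already turned the same way. That correlation was Pearson r = 0.73 over 5526 genes for YKH104 and only r = 0.29 over 5516 genes for YKH106. Between the strains, arrays of the same orientation correlated with r = 0.57 for replicate 1 and r = 0.64 for replicate 2, and arrays of opposite orientation with r = 0.44 and r = 0.25. Each YKH106 array was thus closer to the YKH104 array of its orientation than to its own replicate. These pairs share YKH105 RNA and, within an orientation, the dye and neighbouring array numbers, so the values describe the arrays and are no result on the strains. The YKH106 arrays also correlated with the self-comparison arrays that carry neighbouring array numbers, with r = 0.28 for replicate 1 and r = 0.42 for replicate 2, and these points share the array design and YKH105 RNA. The corresponding values for YKH104 were r = 0.05 and r = 0.36. Array numbers rise with orientation in both strains (86 and 88 in the first, 142 and 144 in the second), so dye and array number cannot be told apart. The labels name no batch or run of arrays. A gene was tested if it had a value on all 4 arrays and on at least 18 of the 21 test-strain arrays that entered the limma fit. This left 5486 genes of 5547, and a gene was called at a Benjamini-Hochberg adjusted p under 0.05.

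Between the strains, 9 genes passed the threshold, 0.164% of those tested. Of these, 8 were lower in YKH104 than in YKH106 (0.146%) and 1, SER3, was higher (0.0182%). SPT3 had by far the largest difference among the tested genes. The other lower genes were the glucose transporter gene HXT1, the acid phosphatase gene PHO3, the phosphate-response gene PHM8, the nicotinic acid permease gene TNA1, the decarboxylase gene FDC1, and ARO5 and YNL040W. In 7 of the 9, all except SER3 and FDC1, YKH104 differed from YKH105 while YKH106 did not pass the threshold against it.

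**Figure D1:**
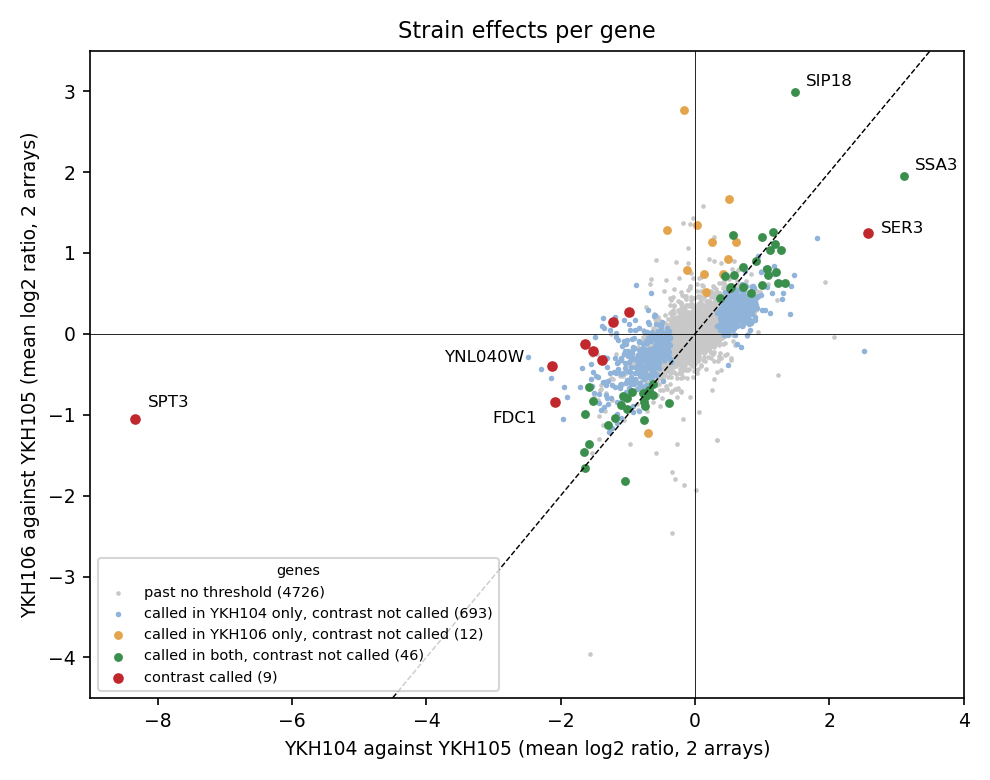
Mean log2 ratio against YKH105 of each of the 5486 tested genes in YKH104 (horizontal) and YKH106 (vertical), 2 arrays each, on linear axes. Colours mark the limma calls, the dashed line marks equal effects, and SPT3 lies far to the left at -8.33 in YKH104 and -1.06 in YKH106.

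SPT3 encodes the SAGA subunit that contacts TBP. Its log2 ratio was -8.10 and -8.57 on the YKH104 arrays and -1.12 and -0.99 on the YKH106 arrays, against 0.05, 0.14 and 0.16 on the YKH105 self arrays. The strains did not overlap, and both lay below every self array. The difference was -7.28 ± 0.41 (SE, n = 2 arrays per strain), a 155-fold lower ratio in YKH104, with a limma adjusted p of 3.98e-06. The values hold no intensities, so whether the YKH104 signal stood above background is not known and the fold may only be a bound. Against YKH105, YKH106 itself did not pass the threshold for SPT3 (-1.06, adjusted p = 0.151 in limma). The neighbouring genes did not share the low ratio. IAT4 was at 0.21 on both YKH104 arrays and at 0.22 and -0.02 on the YKH106 arrays. SHE9 was at -0.35 and 0.12 in YKH104 and at -0.10 and -0.13 in YKH106. The 95% interval of the strain difference ran from -0.17 to 0.39 for IAT4 and from -1.10 to 1.11 for SHE9, so a moderate difference at SHE9 was not detectable.

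SER3 encodes the enzyme that commits 3-phosphoglycerate to serine synthesis. Its log2 ratio was 2.67 and 2.50 in YKH104, 1.39 and 1.11 in YKH106, and between -0.03 and 0.16 on the self arrays. Both strains stood above the reference without overlapping each other. YKH104 exceeded YKH106 by 1.33 ± 0.21, or 2.52-fold (limma adjusted p = 0.0321).

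FDC1, a gene for a decarboxylase of aromatic carboxylic acids, was the counterpart on the low side. Its log2 ratio was -2.23 and -1.95 in YKH104 and -0.72 and -0.97 in YKH106, with self arrays between -0.13 and 0.05. It was called lower than YKH105 in both strains, and YKH104 was lower than YKH106 by a difference of -1.24 ± 0.17 (limma adjusted p = 0.0175). YNL040W, which carries only a systematic name, was at -2.15 and -2.10 in YKH104 and at -0.37 and -0.43 in YKH106. The self arrays reached down to -0.22, so the YKH106 values lay a little below them and the YKH104 values far below. Its difference was -1.72 ± 0.19, a 3.30-fold lower ratio in YKH104 (limma adjusted p = 0.0032).

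HXT1 encodes a low-affinity glucose transporter. Its log2 ratio was -1.23 and -1.80 in YKH104 and 0.17 and -0.58 in YKH106, so the YKH106 arrays stood on either side of 0. The difference was -1.31 ± 0.21 (limma adjusted p = 0.0321), and it was -1.40 in the first orientation and -1.21 in the second. TNA1, the gene of the high-affinity nicotinic acid permease, was at -1.47 and -1.28 in YKH104 and at -0.31 and -0.33 in YKH106. Its difference of -1.06 ± 0.18 was the smallest of the called ones, at an adjusted p of 0.0479 in limma.

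PHO3 and PHM8 belong to phosphate metabolism. PHO3, an acid phosphatase gene, was at -0.93 and -1.03 in YKH104 and at 0.36 and 0.17 in YKH106, and the YKH106 values spanned a range close to that of the self arrays (0.06 to 0.34). PHM8, a phosphatase gene that responds to phosphate limitation, was at -1.47 and -1.80 in YKH104 and at 0.05 and -0.29 in YKH106. The differences were -1.25 ± 0.20 for PHO3 and -1.52 ± 0.23 for PHM8, both at a limma adjusted p of 0.0321. ARO5 was at -0.90 and -1.54 in YKH104 and at 0.09 and 0.19 in YKH106. Its difference of -1.36 ± 0.22 (limma adjusted p = 0.0322) was unequal between orientations, at -0.99 in the first and -1.73 in the second.

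**Figure D2:**
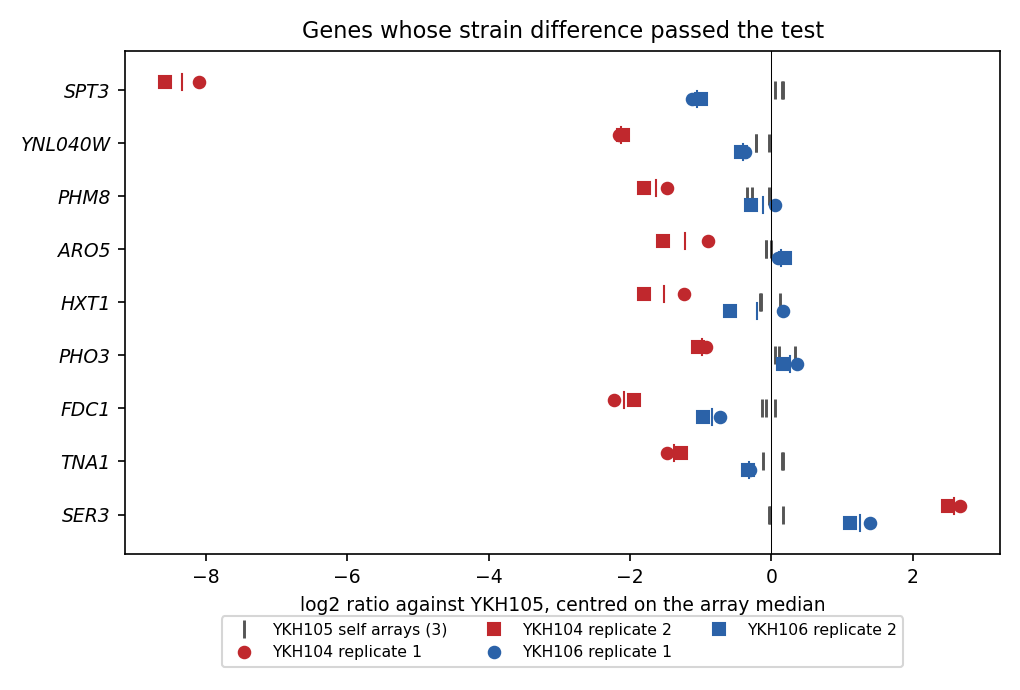
Centred log2 ratio against YKH105 on each array for the 9 genes that differed between YKH104 and YKH106, with the 3 YKH105 self arrays. In each gene the 2 YKH104 points lie apart from the 2 YKH106 points, and SPT3 near -8 sets the scale. The genes were chosen by their difference on these same arrays, so the separation largely follows from the choice.

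How many genes are called depends on which arrays enter the fit. Fitted on the 4 arrays alone, with 1 residual degree of freedom per gene before moderation, limma called 272 of 5499 genes (4.95%), 53 higher (0.964%) and 219 lower (3.98%) in YKH104. All 9 genes were among them, and all 272 had the same sign in both orientations. In this fit the residual is the disagreement between the 2 orientations, so the equal sign largely follows from the call. On the 11 test arrays against YKH105 the fit called 2 of 5493 genes (0.0364%), both lower: SPT3 and YNL040W. The median SE of a difference was 0.24 in the fit of 21 arrays, 0.19 with 11 arrays and 0.10 with 4. The larger fits pool the spread of other strains and also share their dye term with them. Which of these sets the SE was not tested. At an unadjusted p under 0.05 the fit of 21 arrays had 325 genes, 104 higher and 221 lower. Leaving out 1 array at a time mattered as well. Without YKH104 replicate 1 only SPT3 of the 9 was called, and without YKH104 replicate 2, YKH106 replicate 1 or YKH106 replicate 2 it was 3, 3 and 5 of the 9. SPT3 stayed past the threshold in each of these 4 fits, and YNL040W in all but the one without YKH104 replicate 1.

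The difference between the strains was similar in the 2 orientations for many genes. Across 5486 genes the differences in the first and second orientation correlated with Pearson r = 0.57 and Spearman rho = 0.60, or r = 0.54 without SPT3. This is a description across genes that share the arrays, not replicates. Of 5499 genes, 3926 had the same sign in both orientations. A difference beyond 1 on the log2 scale in both orientations was seen for 7 higher genes (0.127%) and 29 lower genes (0.527%), and 1 and 5 of these were called. On the 2 self arrays numbered beside the test arrays, 0 of 5526 genes were above 1 and 1 was below -1 on both. Those are values of single arrays and not differences of 2, and the 2 self arrays correlated with r = -0.19. Their counts are therefore no measure of how many differences would arise without a strain effect.

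**Figure D3:**
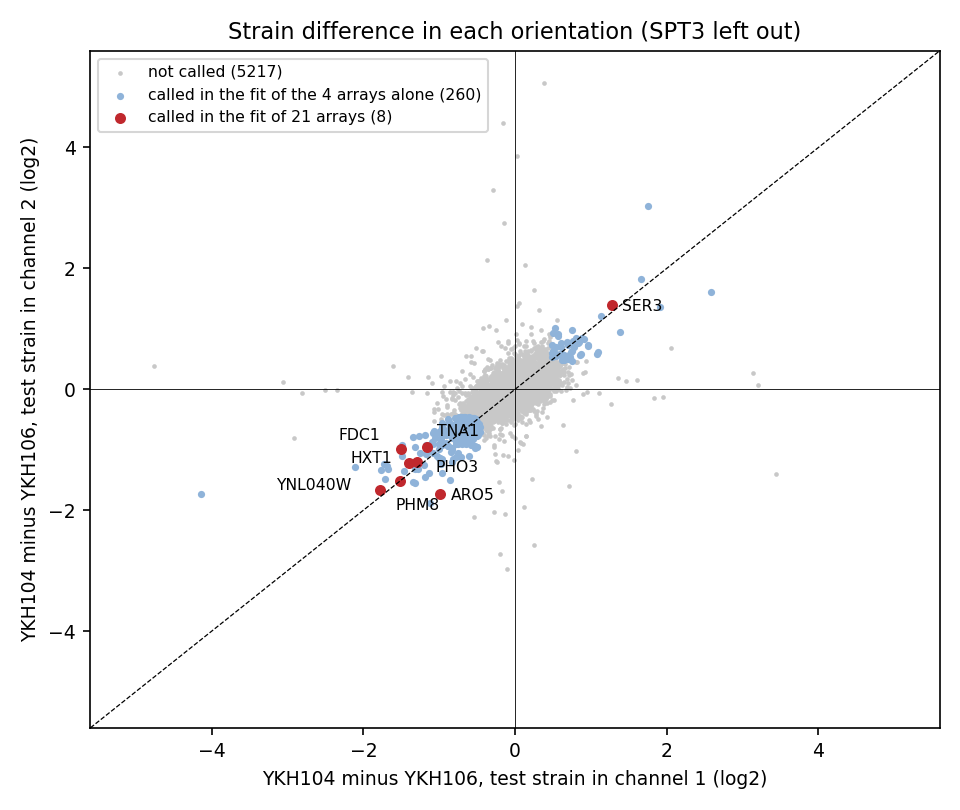
Difference YKH104 minus YKH106 (log2) per gene with the test strain in channel 1 (horizontal) and in channel 2 (vertical), SPT3 left out, with the dashed line at equality. The 8 red genes are the other calls of the fit of 21 arrays and the blue ones were called only in the fit of the 4 arrays.

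Against the shared reference, YKH104 had 748 called genes (13.6% of 5486), 357 higher (6.51%) and 391 lower (7.13%). YKH106 had 60 (1.09%), 35 higher (0.638%) and 25 lower (0.456%). The SD of the strain effects over all tested genes was 0.43 in YKH104 and 0.28 in YKH106. These counts rest on few arrays: without 1 or the other of its own arrays YKH104 had 72 or 105 called genes, and YKH106 had 20 or 12. A call in 1 strain alone is no difference between them. Of the 700 genes called in YKH104 and not in YKH106, 7 passed the test of the difference, and of the 12 genes called in YKH106 and not in YKH104, 0 did. In the fit of the 4 arrays these counts of strain-specific genes were 156 and 17.

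The genes called in both strains in the same direction numbered 48 of 5486 tested, with 24 higher and 24 lower, and 0 were called in opposite directions. Both strains were measured against the same reference, and the arrays of a pair share orientation and have neighbouring array numbers. What the reference and the pairing of arrays add to the overlap cannot be told apart from the strains, and the 48 are a count without a test. All 4 test arrays lay above every YKH105 self array for 22 of the 24 higher genes, and below every self array for 24 of the 24 lower genes. The genes were chosen by their calls on these same 4 arrays, so this position largely follows from the choice and is no separate support. The effect was farther from 0 in YKH104 for 30 of the 48 genes and in YKH106 for 18. Of the 48, only SER3 and FDC1 also passed the test of the difference between the strains.

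Of the 10 shared higher genes with the largest effects, SER3 is described above. SSA3, a stress-inducible Hsp70, was at 3.01 and 3.21 in YKH104 and at 1.63 and 2.27 in YKH106. The strains did not overlap, but the difference of 1.16 ± 0.34 did not pass (limma adjusted p = 0.377). SIP18, a hydrophilin induced by osmotic stress and desiccation, had the opposite order, at 1.05 and 1.93 in YKH104 and 2.17 and 3.81 in YKH106, with self arrays between -0.70 and 0.64. Its difference of -1.50 ± 0.41 did not pass either (limma adjusted p = 0.300). The mitochondrial peroxiredoxin gene PRX1 was at 1.23 and 1.09 in YKH104 and at 1.39 and 1.12 in YKH106. For GRX2, a glutaredoxin gene, the ratios were 1.01 and 0.82 in YKH104 and 0.90 and 0.91 in YKH106. For both genes the values of the strains overlapped, with a 95% interval of the difference from -0.63 to 0.44 for PRX1 and from -0.49 to 0.51 for GRX2. The methionine sulphoxide reductase gene MXR1 had strain effects of 1.08 in YKH104 and 0.81 in YKH106, and CYC7, the cytochrome c isoform of low oxygen, 1.19 and 1.11. TMA17, which helps to assemble the proteasome, had 1.28 and 1.04 and the transaldolase paralogue NQM1 1.12 and 1.04. RTN2, a reticulon of the endoplasmic reticulum, was at 0.78 and 1.22 in YKH104 and at 0.98 and 1.43 in YKH106. All of these were called in both strains, and none of the differences passed.

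Of the 10 shared lower genes with the largest effects, FDC1 is described above. BAP3, an amino acid permease gene, was at -1.06 and -1.52 in YKH104 and at -0.96 and -1.29 in YKH106. The 95% interval of the difference ran from -0.61 to 0.28. FIG1, a membrane protein of mating cells, was at -2.36 and -0.95 in YKH104 and at -1.66 and -1.26 in YKH106, so the YKH106 values fell between the YKH104 values. PDR12, the exporter of weak organic acids, was at -1.07 and -1.01 in YKH104 and at -2.42 and -1.20 in YKH106. It was lower in YKH106 on both pairs, by a difference of 0.77 with an interval from -0.02 to 1.56. The aquaporin gene AQY2 had effects of -1.01 in YKH104 and -0.93 in YKH106, and PRM10, a pheromone-regulated membrane protein, -1.11 and -0.88. The sphingolipid synthesis gene SUR1 had -1.20 and -1.04, the kinase genes RCK1 and YPK2 had -1.63 and -1.66, and -1.64 and -0.99, and the dehydrogenase gene BDH2 had -1.58 and -1.36. YPK2 showed the largest gap of these after FDC1 and PDR12, and its difference of -0.65 had an adjusted p of 0.436 in limma.

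**Figure D4:**
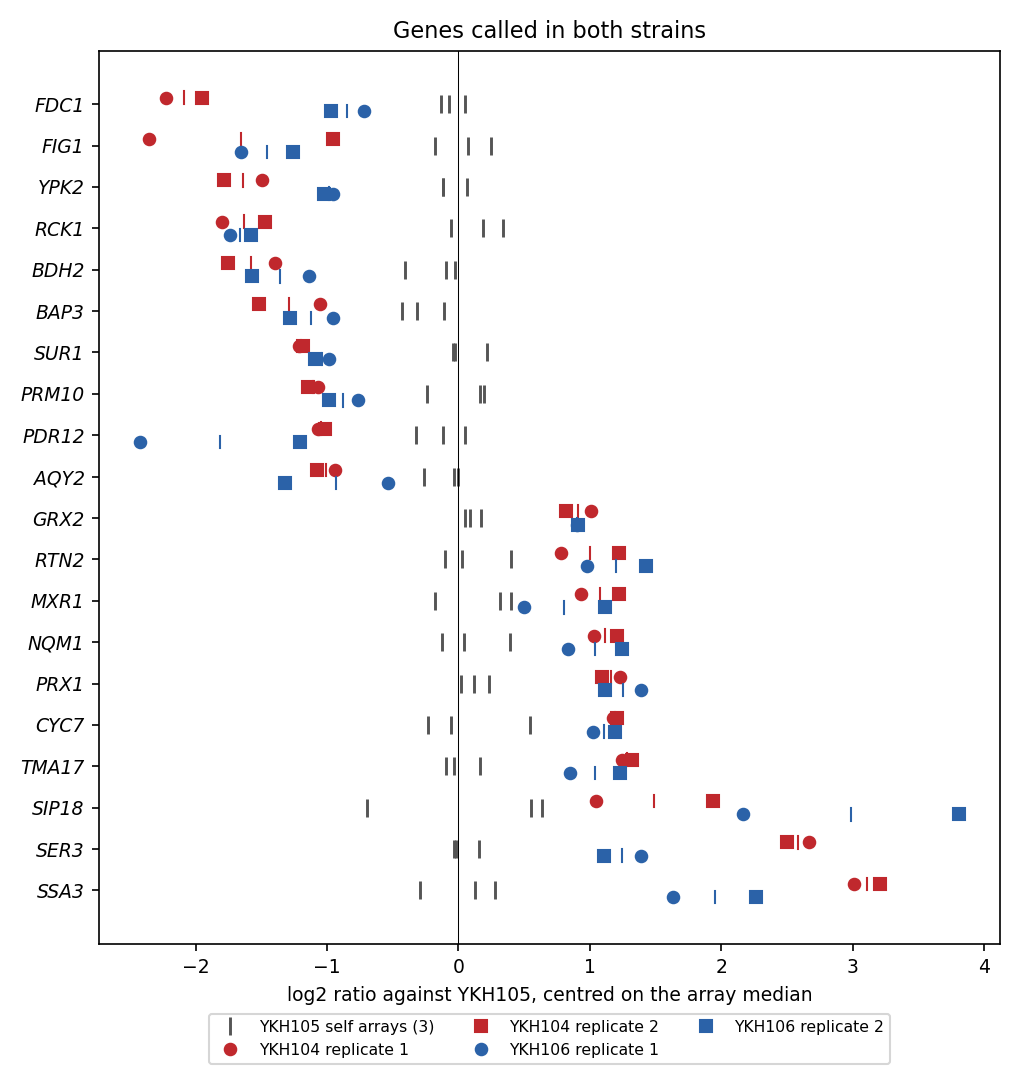
Centred log2 ratio on each array for the 10 higher and 10 lower genes with the largest shared effects in YKH104 and YKH106, with the YKH105 self arrays near 0. The 4 test points of a gene lie on 1 side of 0, and SER3 and FDC1 are the genes that passed the test of the strain difference.

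The 12 genes called in YKH106 and not in YKH104 were 11 higher and 1 lower. They are named because the group is small, after their values were seen. MSS4, which encodes a phosphatidylinositol phosphate kinase, was at 4.02 and 1.52 in YKH106 and at -0.12 and -0.21 in YKH104. The YKH106 arrays differed from each other by more than the YKH104 arrays did from 0, and the difference of -2.94 ± 0.61 did not pass (limma adjusted p = 0.107). ASK10, a regulator of the glycerol channel, was at 1.39 and 1.31 in YKH106 and at 0.07 and -0.01 in YKH104, with self arrays up to 0.36. Its replicates lay close together, but the difference of -1.32 ± 0.32 did not pass with the pooled spread (limma adjusted p = 0.212). Fitted on the 4 arrays alone it had an adjusted p of 0.0111. LCL1 was at 2.01 and 0.55 in YKH106 and at -0.10 and -0.74 in YKH104, while its self arrays reached 0.82. Strain effects in YKH106 were 1.66 for GIS1, a nutrient-response transcription factor gene, 1.14 for the phosphoglucomutase gene PGM2 and 1.13 for the glutaredoxin gene GRX1. They were 0.92 for the nicotinamidase gene PNC1, 0.78 for the pentose phosphate gene GND2, 0.74 for YMR090W, 0.74 for the arginase gene CAR1 and 0.51 for the thiol peroxidase gene HYR1. TDA6 was the lower one, at -1.22. The YKH104 effects of the genes from GIS1 to TDA6 had the same sign without a call, except GND2 at -0.12. They reached 0.61 for GRX1 and -0.71 for TDA6. The adjusted p of the strain difference among the 12 genes was lowest for LCL1, at 0.0752.

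Genes that encode TFIID, SAGA and the regulators of TBP were mostly near 0 in both strains. Of 14 TFIID genes, 1 was called higher in YKH104 and 0 in YKH106, which is near the share over all genes (6.51% higher in YKH104 and 0.638% in YKH106). That gene was TAF11, at 0.73 and 0.51 in YKH104 and at 0.28 and -0.08 in YKH106, with a difference of 0.52 (limma adjusted p = 0.522). The median effect of the TFIID genes was 0.22 in YKH104 and 0.12 in YKH106, against 0.0028 and 0.011 over all tested genes. Of 14 SAGA genes only SPT3 was called, in YKH104, where 7.13% of all genes were lower. The genes for the other SAGA subunits that work beside Spt3 had small effects: SPT7 0.00 in YKH104 and -0.10 in YKH106, SPT8 0.29 and 0.13, and SPT20 0.35 and -0.01. GCN5, the acetyltransferase gene, had 0.16 and 0.08. Among 14 genes for TBP and its regulators, 2 were higher and 2 lower in YKH104 and 0 were called in YKH106, beside 6.51% higher, 7.13% lower and 1.09% of all genes. BDF2, a bromodomain protein that associates with TFIID, was at -1.44 and -1.33 in YKH104 and at -0.30 and -0.32 in YKH106. Its difference of -1.08 ± 0.33 did not pass (limma adjusted p = 0.424). BUR6 and NCB2, the subunits of the TBP inhibitor NC2, had effects in opposite directions in YKH104, at 0.75 and -0.41.

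Nutrient transport and nutrient response genes had lower calls in YKH104 and few calls in YKH106. Of 20 hexose transporter genes, 10 were lower in YKH104 against a background of 7.13%, and 1, HXT16, was lower in YKH106 against 0.456%. The median effect was -0.83 in YKH104 and -0.27 in YKH106, and the difference was below 0 in both orientations for 14 of 20 genes, against 37.1% of all tested genes. HXT3 was at -1.46 and -1.92 in YKH104 and at -0.32 and -0.53 in YKH106, without overlap, and its difference of -1.26 had a limma adjusted p of 0.263. Members such as HXT6 and HXT16 have near-identical copies, so signal on their spots may come from more than 1 gene. Of 18 genes on the phosphate list, 5 were lower in YKH104 and 0 in YKH106, beside 7.13% and 0.456% of all genes. PHO3 and PHM8 of this list differed between the strains, and whether its members respond to phosphate here was not tested. PHO5, the repressible acid phosphatase gene and a close relative of PHO3, was at -0.96 and -1.14 in YKH104 and at 0.24 and 0.11 in YKH106, and its difference of -1.22 ± 0.22 fell just short (limma adjusted p = 0.0614). Close relatives such as PHO3 and PHO5 may share signal on their spots, so their calls may not be independent. The median of the phosphate list was small, at -0.25 in YKH104 and -0.10 in YKH106. Of 27 genes under nitrogen catabolite repression, 6 were lower and 1 higher in YKH104, while 1 was lower and 2 were higher in YKH106, against the same 7.13% and 0.456% lower and against 6.51% and 0.638% higher. MEP2, an ammonium transporter gene, was at -0.56 and -0.83 in YKH104 and at 0.35 and -0.07 in YKH106, and DAL1 of allantoin use was at -1.04 and -1.17 against -0.11 and -0.50. Neither difference passed.

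Of 56 amino acid synthesis genes, 7 were higher and 7 lower in YKH104, and 1, SER3, was higher in YKH106. Over all genes 6.51% were higher and 7.13% lower in YKH104, and 0.638% were higher in YKH106. HIS4 was at -1.26 and -1.35 in YKH104 and at -0.63 and -0.53 in YKH106, and ARG3 at -1.11 and -1.31 against -0.58 and -0.37. LEU2, which serves as a plasmid marker as well, was at 1.32 and 0.91 in YKH104 and at 0.22 and 0.29 in YKH106, and 1 self array was at 0.52. None of the 3 differences passed.

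The 2 lists of stress genes had different orders of the strains. Of 26 heat shock protein genes, 8 were higher and 1 lower in YKH104 and 2 were higher in YKH106, beside 6.51%, 7.13% and 0.638% of all genes. The median effect was 0.42 in YKH104 and 0.13 in YKH106. The median of these genes on the self arrays lay between -0.40 and -0.07. SSA4, a stress-induced Hsp70 gene related to SSA3, was at 1.37 and 1.47 in YKH104 and at 0.24 and 0.25 in YKH106. The difference of 1.17 ± 0.30 fell short of the threshold (limma adjusted p = 0.231), and HSP42 at 0.69 and 0.99 against 0.19 and 0.07 had a smaller one of 0.71. HSP31, a methylglyoxalase gene, was the lower member in YKH104, at -0.70 and -0.60 against 0.55 and 0.45 in YKH106, and its difference of -1.15 ± 0.20 fell just short (limma adjusted p = 0.0551). Of 36 general stress genes, 7 were higher and 3 lower in YKH104 and 5 were higher and 1 lower in YKH106. The lower count in YKH104 is near the 7.13% of all genes, and the other shares over all genes were 6.51% higher in YKH104 and, in YKH106, 0.638% higher and 0.456% lower. Here the median effect was larger in YKH106, at 0.33 against 0.17 in YKH104, and the difference was below 0 in both orientations for 20 of 36 genes, against 37.1% of all tested genes. GLK1, the glucokinase gene, was at -1.21 and -1.52 in YKH104 and at 0.57 and -0.19 in YKH106, with a difference of -1.56 ± 0.34 (limma adjusted p = 0.141).

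**Figure D5:**
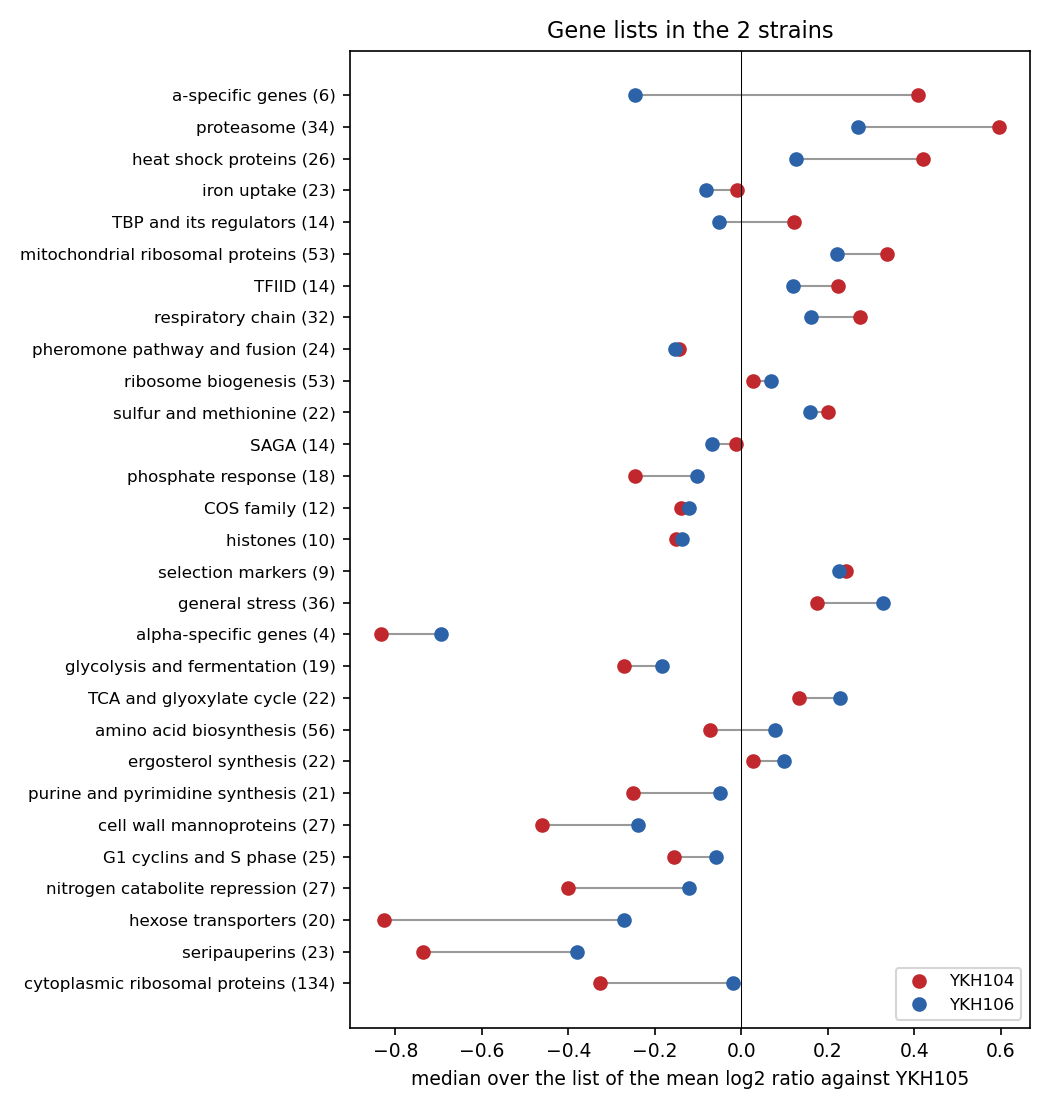
Median over each gene list of the mean log2 ratio against YKH105 in YKH104 and YKH106, with the number of tested genes in brackets. Hexose transporter genes were at -0.83 and proteasome genes at 0.60 in YKH104, and the YKH106 medians, -0.27 and 0.27, lie nearer to 0.

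Genes of protein synthesis and breakdown had small effects that were spread widely over the members of a list. Of 34 proteasome genes, 20 were higher in YKH104 against a background of 6.51%, and 0 were called in YKH106. The median effect was 0.60 in YKH104 and 0.27 in YKH106, and the difference was above 0 in both orientations for 32 of the 34 genes, against 34.3% of all genes. PRE6, a subunit of the core particle, was at 1.05 and 0.76 in YKH104 and at 0.53 and 0.37 in YKH106. Of 134 cytoplasmic ribosomal protein genes, 19 were lower and 1 higher in YKH104 and 0 were called in YKH106, beside 7.13% lower, 6.51% higher and 1.09% of all genes. Their median effect was -0.33 in YKH104 and -0.02 in YKH106, and 119 of 134 were below 0 in both orientations of the difference, against 37.1% of all genes. RPL6B, a protein of the large subunit, was at -0.97 and -0.83 in YKH104 and at -0.22 and -0.39 in YKH106. The gene pairs for ribosomal proteins are near-identical, so the spots of a pair are not independent. Of 53 mitochondrial ribosomal protein genes, 15 were higher in YKH104 and 1, RSM27, in YKH106, beside 6.51% and 0.638% of all genes, with medians of 0.34 and 0.22. No proteasome or ribosomal protein gene of these lists passed the test of the difference, and the list medians are descriptions.

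Further lower calls of YKH104 were among genes of the cell surface and of the cell cycle. They are to be read against 7.13% of all genes lower in YKH104 and 0.456% in YKH106, a share at which a list of this size holds 0 calls or few. Of 27 cell wall mannoprotein genes, 6 were lower in YKH104 and 0 in YKH106, with medians of -0.46 and -0.24. CWP2, a major wall mannoprotein gene, was at -1.30 and -1.33 in YKH104 and at -0.03 and -0.57 in YKH106, but 1 self array was at 0.53. Of 23 seripauperin genes, a family of near-identical subtelomeric copies, 5 were lower in YKH104 and 0 in YKH106, and the list median was -0.10 and -0.64 on the YKH106 arrays and -0.31 to 0.28 on the self arrays. The self arrays thus spread over much of the range in YKH106. Of 25 genes of G1 and S phase, 5 were lower in YKH104 and 0 in YKH106. The G1 cyclin gene CLN2 was at -1.35 and -1.28 in YKH104 and at -0.38 and -0.43 in YKH106. RNR3, a ribonucleotide reductase gene, was at -3.14 and -1.45 in YKH104 and at -0.22 and -0.65 in YKH106, and the 2 YKH104 arrays disagreed by more than the distance of the nearer one from YKH106.

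Markers of mating type were read as a check of cell identity. Of 6 tested a-specific genes 1 was called higher in YKH104 (6.51% of all genes), and of 4 alpha-specific genes 3 were lower in YKH104 (7.13% of all genes). In both lists 0 were called in YKH106, where 1.09% of all genes were called. In lists this small, 0 calls or 1 call is near those shares. STE2, the receptor for alpha-factor, was at 0.58 and 0.39 in YKH104 and at -0.32 and -0.44 in YKH106. The alpha-specific agglutinin gene SAG1 was at -0.97 and -1.35 in YKH104 and at -0.89 and -1.32 in YKH106, and the alpha-factor gene MF(ALPHA)2 at -0.80 and -1.76 against -0.82 and -1.60. The strains overlapped at both of these alpha-specific genes. STE3, the receptor for a-factor and the other called one, did not overlap, at -0.48 and -0.53 in YKH104 and at -0.29 on both YKH106 arrays. The differences at these 4 genes did not pass. Another a-specific gene, MFA1, had a wider gap between the strains than STE2, but also a high value on a self array. It was called in neither strain, and its values are given under the other observations. The median effect of the a-specific list was 0.41 in YKH104 and -0.24 in YKH106, and that of the alpha-specific list was -0.83 and -0.70. The part of mating-type transcripts in the strain differences was not tested.

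The other strains measured against YKH105 give the levels of the 9 genes side by side, and since they share the reference they are no separate support. SPT3 was between -8.96 and -7.50 in YKH107, between 1.01 and 1.86 in YKH108 and between -0.74 and -0.29 in YKH109. YKH104 and YKH107 thus lay far below the other strains at this gene. HXT1 was between -2.90 and -2.38 in YKH107 and between 0.72 and 1.21 in YKH109, and ARO5 between -3.23 and -3.05 in YKH107 and between -0.43 and -0.20 in YKH109. PHM8 was between -1.79 and -1.52 in YKH107 and between 0.62 and 1.04 in YKH109. In these 3 genes YKH108 lay above 0 on both of its arrays. SER3 was between 3.16 and 3.33 in YKH107, 1.05 and 1.06 in YKH108, and 1.86 and 2.36 in YKH109. FDC1 was at -2.02 and -1.74 in YKH107 and between -1.94 and -1.74 in YKH109, so these strains overlapped there, as they did for TNA1. TNA1 was between -2.09 and -2.06 in YKH107, -1.70 and -1.41 in YKH108, and -2.08 and -1.64 in YKH109. PHO3 was between -2.55 and -2.36 in YKH107, -2.36 and -2.05 in YKH108, and -1.46 and -1.08 in YKH109. YNL040W was between -2.70 and -2.35 in YKH107, -1.19 and -0.90 in YKH108, and -1.64 and -1.13 in YKH109. All genes that were lower in YKH104 than in YKH106 were thus below 0 in YKH107 too, so their low ratio was not found in YKH104 alone. FDC1, between -1.19 and -1.08 in YKH108, was below 0 in YKH108 and YKH109 as well, as were TNA1, PHO3 and YNL040W.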

How the data were processed

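The authors deposited 1 log2 ratio between the channels for every spot. Per the labels, arrays were scanned with a GenePix 4000A and read with GenePix Pro 4.0, and how the ratios were normalized is not given in these sources. Of 6400 spots, 5578 carried 1 gene and 822 none, 5573 were named through the RefSeq table of the R64 assembly, and 5 kept the platform name. The 4 arrays had 6358 to 6383 spots with a value. Their number limits the precision, and intensities were not used here. The labels do not say whether arrays came from separate cultures, so p-values measure the spread between arrays.

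Values were centred on each array's median and spots of a gene averaged. limma 3.58.1 in R 4.3.3 (lmFit, eBayes) fitted 21 test arrays with a term per strain and a dye term, leaving 9 residual degrees of freedom. Self arrays, and 2 differently labelled columns of identical values (YKH100 replicate 2 and YJS8 replicate 2), were left out. The code was tested on simulated data, where the fit recovered 60% of genes changed by 1 on the log2 scale and 6% of those changed by 0.5. A difference that did not pass is therefore not shown to be absent. Named genes were the calls of the difference, the 10 shared genes per direction with the largest smaller effect, all genes called in YKH106 alone, up to 4 called members per list and the TFIID and SAGA genes. The members and the 29 gene lists were chosen with earlier results of these data known. Lists were described without a test. No sequence table came with the data, so promoters were not analysed here.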

Additional observations from a re-analysis of the deposited data

Results flagged for a closer look

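The 9 genes whose response differed between YKH104 and YKH106 by the limma test of the difference are given here with their sizes (YKH104 minus YKH106, log2, 2 arrays per strain). SPT3 had -7.28, YNL040W -1.72, PHM8 -1.52, ARO5 -1.36 and HXT1 -1.31. PHO3 had -1.25, FDC1 -1.24, TNA1 -1.06 and SER3 1.33. Each had the same sign in both orientations, which largely follows from the call on these same arrays.

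Spots without a gene name entered no comparison, and 4 of them differed between the strains by more than 1 in both orientations, and by more than the distance from 0 of every measured YKH105 self array. Spot 880 was at -2.26 and -2.06 in YKH104 and at -0.71 and -0.60 in YKH106, with a mean difference of -1.51, and its self arrays were between 0.17 and 0.47. Spot 1028 had a mean difference of -1.19, spot 1596 of 1.13 and spot 5196 of 1.72. Spot 1596 was at 1.43 and -0.11 in YKH104 and spot 5196 at -2.50 and -1.19 in YKH106, so the arrays of a strain stood far apart there. What these spots hold is not known here.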

How the results depend on the processing

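No result reversed. The labels carry no replicate numbers, and the numbers used here mark the orientation. The fit of the 4 arrays alone, with the orientation as a replicate block, is the paired analysis and called 272 genes against 9, with 1 residual degree of freedom. In the fit of 21 arrays the dye term is common to all strains and does not take up what arrays of neighbouring numbers may share. Of the tests on named genes under the alternatives, 1899 kept their side of the threshold, 140 lost it and 41 gained it. SPT3 passed in 13 of 13 refits, YNL040W in 10, FDC1 in 8, PHM8 in 7 and the other 5 genes in 6. Their sizes ranged from -9.23 to -6.97 for SPT3 and from -2.11 to -1.65 for YNL040W.

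Counts are given in 1 order: genes higher in YKH104 than YKH106, lower, called in YKH104, called in YKH106, shared, particular to YKH104 and particular to YKH106. They were 1, 8, 748, 60, 48, 7 and 0. On the deposited scale without centring they were 0, 1, 8, 1, 0 and 1, with the last at 0. With each array scaled to the same spread, 2, 23, 600 (YKH106), 407 (shared), 11 and 5. With the 4 arrays alone and the replicate block, 53, 219, 2781, 902, 746, 156 and 17. With the 11 arrays against YKH105, the higher, lower and YKH104-particular counts were 0, 2 and 2. With the identical columns kept, the higher, lower, YKH106, shared and YKH104-particular counts were 0, 1, 35, 28 and 1. At an adjusted p under 0.01 the counts up to the YKH104-particular genes were 0, 2, 294, 23, 19 and 2. With an absolute log2 of at least 1 added, called genes numbered 133 in YKH104, 23 in YKH106 and 13 in both. Leaving out 1 array at a time gave ranges of 0 to 3, 1 to 9, 72 to 665, 12 to 42, 6 to 19, 2 to 5 and 0 to 6. The cause of these changes was not tested. Where leaving out an array left a strain with a lone array, that array was assumed to vary like the other strains. The depth of signal over background is unknown, so weak spots could not be set apart.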

Other observations

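Several genes differed by more than 1 on the log2 scale in both orientations without passing the test of the difference, and they were picked after their values were seen. ALD4, a mitochondrial aldehyde dehydrogenase gene, was at -1.38 and -1.60 in YKH104 and at -0.03 and -0.06 in YKH106, with a limma adjusted p of 0.362. PBI2, the inhibitor of vacuolar proteinase B, was at -1.51 and -1.21 in YKH104 and at -0.19 and 0.34 in YKH106 (limma adjusted p = 0.0551). TFS1, the inhibitor of carboxypeptidase Y, was at -0.54 and -0.63 in YKH104 and at 1.13 and 0.69 in YKH106 (limma adjusted p = 0.107). The strains lay on opposite sides of the reference for TFS1, and the same held for GPH1, the glycogen phosphorylase gene, at -1.09 and -0.26 in YKH104 and 0.40 and 0.83 in YKH106.

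Some metal uptake and mating genes with large ratios varied between arrays of 1 strain or among the self arrays. ZRT1, a high-affinity zinc transporter gene, was at -1.36 and -1.76 in YKH104 and at -3.12 and -4.79 in YKH106, while 1 self array was at -1.05. FET3, the multicopper oxidase gene of iron uptake, was at 1.33 and -0.68 in YKH104 and at -0.59 and -2.03 in YKH106. MFA1, an a-factor gene, was at 2.15 and 1.98 in YKH104 and at -0.44 and 0.37 in YKH106, but a YKH105 self array was at 1.87. None of the 3 differences passed.

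Some large values stood on 1 array only. UBP2 was at 5.01 on YKH104 replicate 2 and at 0.01 on replicate 1, KKQ8 was at -4.95 on YKH104 replicate 1 and -0.02 on replicate 2, and BIT2 was at -4.93 on YKH106 replicate 2 and 0.0028 on replicate 1.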
